A study of Mus musculus with 6 samples.

Results

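The genes described here are a set of 42 named for their part in DNA replication and mitosis: cyclins and cyclin-dependent kinases (CDKs) with their inhibitors, E2F transcription factors, the proteins that license and unwind replication origins, replication fork and nucleotide enzymes, and the mitotic machinery. The members are a list of genes chosen with earlier results of these data known, and a probe was taken as a member's where its RefSeq accession belongs to that gene. All 42 had a named probe, 56 probes in all, among 20283 genes named on the array. Of the 42, 31 passed the filter on dim probes and were tested, among 10947 genes tested.

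The cells were macrophages grown from the bone marrow of C57BL/6 mice aged 6 to 8 weeks and polarized, per the labels, to M2, the alternatively activated state. One group was kept for 6 h in complete DMEM alone, called medium here, and the other for 6 h in complete DMEM with WGP, particles of yeast cell wall made mostly of beta-glucan, which macrophages bind through C-type lectin receptors and engulf. The agent that polarized the cells and the dose of WGP are not given in the sources used here, and neither is whether replicates came from separate mice or cultures, so the p-values cover the spread of these samples alone, and that spread may be technical. RNA was hybridised to 1-colour Agilent arrays, and each group had 3 deposited files but 2 independent arrays.

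Cell division starts when mitogens raise D cyclins, which with Cdk4 and Cdk6 begin to phosphorylate the retinoblastoma protein and free E2F factors to switch on replication genes. Cyclin E and Cdk2 complete that step, Cdt1 and Cdc6 load the MCM helicase onto origins, and fork proteins such as the sliding clamp Pcna copy the DNA. Cyclin B and Cdk1 then drive mitosis, and the anaphase-promoting complex ends it. In bone-marrow-derived macrophages, growth depends on the cytokine M-CSF and its receptor Csf1r, and cells differentiated in culture leave the cycle progressively.

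The replicate 3 files had the same raw spot values as replicate 1 of their group at all 44397 spots. WGP replicate 3 was averaged into WGP replicate 1, and medium replicate 3, a mean of the other two, was left out. Replicates 1 and 2 are slide 1 and slide 2, each with 1 medium and 1 WGP array. Between 45.0% and 50.6% of probes were well above background on an array. All 10 named macrophage markers were well above background on all 4 arrays, Csf1r and the surface marker Adgre1 among them. Of 14 alternative activation markers 6 were above background on all arrays and 6 on none, Arg1 among the latter. Of the 8 tested, 2 rose, 3 fell and 3 did not pass, where 23.2% of all tested genes rose and 17.4% fell. Tgm2 and Egr2 rose by 3.71 and 2.80 on the log2 scale (adjusted p = 0.00129 for both in limma). Clec10a changed by -4.035 (0.00138). Cd163 was at least 2.44-fold lower (0.00156), with neither WGP array well above background. Mrc1, the mannose receptor, fell by 0.64 (adjusted p = 0.0148), a call lost without WGP 1 or WGP 2.

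Markers of other cells were present in part. Lymphocyte genes were above background on all arrays for 5 of 16 (Cd3e at 3.54 to 4.12 on the level scale) and on none for 9, granulocyte and progenitor genes for 5 and 4 of 13 (Kit on none, Mpo on 2 arrays), stromal genes for 6 and 5 of 12 (Col1a1 on all arrays), dendritic cell genes for 3 and 5 of 8, and erythroid and megakaryocyte genes for 2 and 6 of 10. Their summed linear levels, relative to the 75th percentile of the array, were 42.8 and 40.8 in medium and 35.2 and 42.8 with WGP for lymphocyte genes, and 25.3 and 20.0 against 20.8 and 20.4 for granulocyte and progenitor genes. Stromal genes summed to 18.2 and 13.1 against 14.7 and 15.2. Erythroid and megakaryocyte genes summed to 2.12 and 2.29 against 1.08 and 0.919. Dendritic cell genes summed to 121 and 80.7 against 202 and 215. Nearly all of that last sum was 1 gene, Siglech, at log2 levels of 6.91 and 6.32 against 7.65 and 7.74. Of 7 tested lymphocyte genes 2 fell: Cd79a (adjusted p = 0.0246, lost without WGP 1 or WGP 2 at 0.0784 and 0.0773) and Cd79b, which was chosen after its values were seen and was at least 5.04-fold lower (adjusted p = 0.00916). Falls were also called for 3 of 3 erythroid and megakaryocyte genes, 1 of 7 stromal genes and 0 of 7 granulocyte and progenitor genes, while 2 of 3 dendritic cell genes rose. Over all tested genes, 17.4% were called lower and 23.2% higher. The part of these other cells in the members' results was not tested.

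The calls among the 42 genes went in both directions. Of the 31 tested, 12 rose and 3 fell at an adjusted p under 0.05 in limma, with Benjamini-Hochberg adjustment over all 10947 genes, and 16 did not pass. The rises were led by Mki67, Cdt1, Pcna and Tk1, and the falls were those of Ccnd3, Cdkn2c and E2f1. The 15 calls are 48.4% of the tested members, and over all tested genes the share was 40.6%, with 23.2% higher and 17.4% lower. The median change of the tested members was 0.22 on the log2 scale against 0.03 over all genes, and the median absolute change 0.50 against 0.41. With the arrays scaled to their median, the all-gene median became 0.19, the split of calls moved from 2539 higher and 1902 lower to 3192 and 1199, and the members gave 12 higher and 2 lower.

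The medium and WGP arrays did not overlap for 26 of the 31 members, where 75.1% of all tested genes did not. A call with at least a 2-fold change was made for 7 members, against 14.7% of all genes. With the slide as a block, 10 members rose and 3 fell, against 37.4% of all genes called in that fit. Normexp background correction with an offset of 50, under percentile scaling, kept the direction of the calls but made the log2 changes smaller for all called members except E2f1 (-0.60), for example 1.26 for Mki67, 0.29 for E2f8, 0.44 for Tk1, 0.37 for Ccne1, 0.29 for Ccnb2, 0.47 for Mcm3 and -0.29 for Cdkn2c. In bulk RNA, fewer cells of a type and less RNA per cell cannot be told apart, so a higher level may come from more cells in cycle or more RNA in each. Each level below is the log2 processed signal relative to the 75th percentile of the array, in the order medium 1, medium 2, WGP 1, WGP 2, and one gene's level says nothing against another's, because probes differ in brightness.

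**Figure D1:**
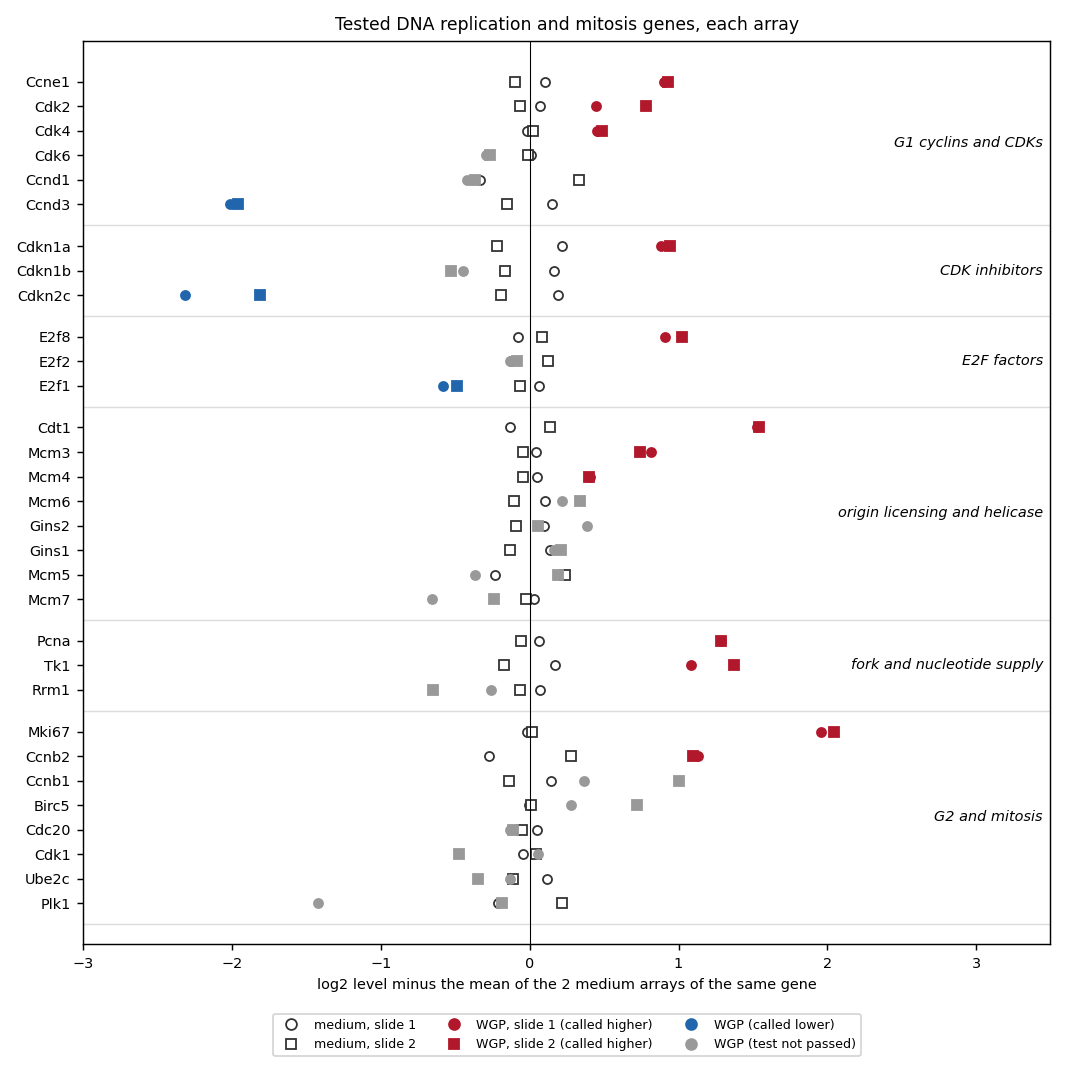
Each tested member on each of the 4 arrays, as the log2 level minus the mean of the 2 medium arrays of the same gene, grouped by role; circles are slide 1 and squares slide 2, open symbols medium and filled symbols WGP. Mki67 lies about 2.00 to the right on both slides, Ccnd3 and Cdkn2c lie far to the left, and grey symbols mark WGP arrays of members that did not pass.

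**Figure D2:**
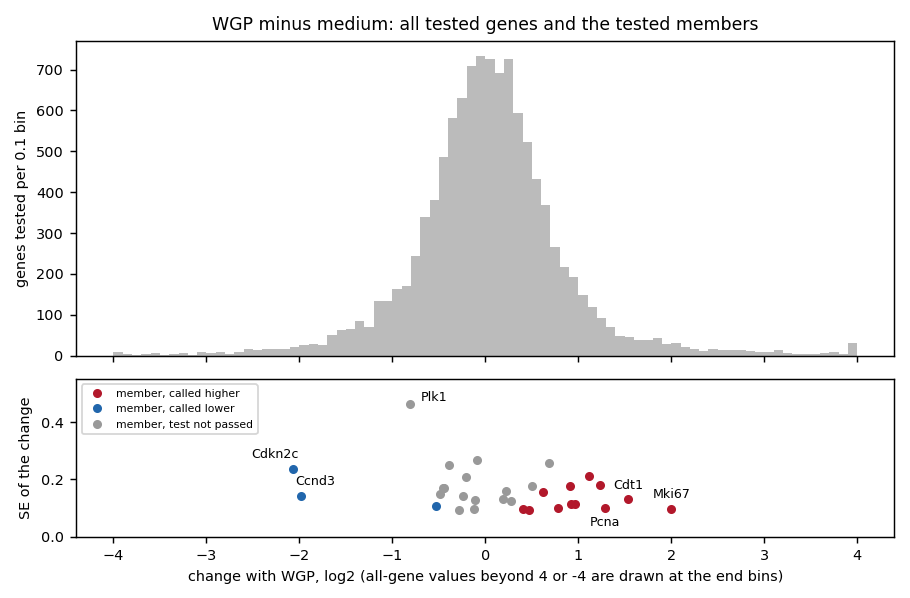
The top panel counts all 10947 tested genes by their log2 change with WGP, and the lower panel places the 31 tested members by change (x) and standard error (y). Called members lie on both sides of 0, from Cdkn2c at -2.07 and Ccnd3 at -1.99 to Mki67 at 2.00. Cdkn2c and Plk1 are drawn at their measured differences, although their WGP arrays were not well above background.

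Among the G1 cyclins and CDKs, which carry a cell from growth signals to the start of replication, cyclin D3 fell and cyclin E1 rose. Of 8 members 6 were tested, 3 rose (Ccne1, Cdk2, Cdk4), Ccnd3 fell, and Ccnd1 and Cdk6 did not pass. Ccnd3, cyclin D3, a D-type partner of Cdk4 and Cdk6, was at 2.93 and 2.62 in medium and at 0.76 and 0.82 with WGP. Both medium arrays lay far above both WGP arrays, and the change was -1.99 ± 0.14 (SE, n = 2 arrays per group; 3.97-fold lower, adjusted p = 0.00273).

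Ccne1, cyclin E1, the activator of Cdk2 at the start of S phase, was at -1.49 and -1.69 in medium and -0.68 and -0.66 with WGP, without overlap, and was 1.89-fold higher (0.92 ± 0.11, adjusted p = 0.00799). Its catalytic partner Cdk2 was at -1.60 and -1.73 in medium and -1.21 and -0.88 with WGP. Both WGP arrays were higher, by 0.38 on slide 1 and 0.85 on slide 2, for a 1.53-fold rise (0.62 ± 0.15, adjusted p = 0.0403). Cdk4, the kinase that D cyclins activate, stood at 4.38 and 4.42 in medium and at 4.85 and 4.89 with WGP. The change was 0.47 on each slide, a 1.38-fold rise (0.47 ± 0.093, adjusted p = 0.0231).

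Ccnd1, cyclin D1, was at -1.97 and -1.30 in medium and -2.06 and -2.00 with WGP. Medium 1 lay beside the WGP arrays and medium 2 above them, and the change of -0.39 ± 0.25 did not pass (adjusted p = 0.266). Cdk6, the second D-cyclin kinase, was at -2.10 and -2.12 in medium and at -2.40 and -2.38 with WGP, lower on both WGP arrays by a small step that did not pass (-0.28 ± 0.092, adjusted p = 0.0760). Only 1 of the 2 WGP arrays was well above background for Cdk6. The rise of Cdk4 lost its call without any 1 of the 4 arrays (adjusted p = 0.0640 to 0.122), and that of Cdk2 without medium 1 (0.0896), medium 2 (0.138) or WGP 2 (0.136) and with the slide as a block (0.0594). Ccnd1 changed by -0.73 without medium 1 (adjusted p = 0.0338) but by -0.06 without medium 2 (0.704), and by 0.06 with normexp background and percentile scaling. The rise of Ccne1 missed the threshold with no filter on dim probes (0.0519).

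The 3 CDK inhibitors did not share 1 outcome. Cdkn1a (p21), which binds and restrains Cdk2 complexes and is a target of p53, rose on its brightest probe but not on a second. Cdkn2c (p18), which blocks Cdk4 and Cdk6, fell. Cdkn1b (p27), a Cdk2 inhibitor high in resting cells, was lower with WGP but did not pass. Cdkn2c was at -1.08 and -1.46 in medium and at -3.59 and -3.08 with WGP, where neither array was well above background. Against the dimmest detectable signal it was at least 3.48-fold lower (adjusted p = 0.00666). Such a bound sets the brighter group's mean against the lowest signal of any probe well above background on the dim arrays. The dim probe's own signal takes its place where that is higher. The bound holds under the main processing only, and over the alternatives the change of Cdkn2c was as small as -0.29.

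Cdkn1b stood at 1.47 and 1.14 in medium and 0.85 and 0.77 with WGP, lower on both WGP arrays, with a change of -0.49 ± 0.15 and an adjusted p of 0.0626. It passed, as lower, in 6 of 17 alternatives: without medium 2 (-0.65, adjusted p = 0.0447), with normexp background under percentile scaling (0.0186) or quantile normalization (0.0178), with probes above background on all arrays (0.0445), and with replicate 3 averaged into replicate 1 (0.0419) or every file as its own sample (0.00439). For Cdkn1a the brightest probe was at 2.34 and 1.90 in medium and at 3.00 and 3.07 with WGP. That is a 1.88-fold rise (0.91 ± 0.18, adjusted p = 0.0219), by 0.66 on slide 1 and 1.16 on slide 2. The call was lost without WGP 1 (0.0701) or WGP 2 (0.0784).

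A second Cdkn1a probe, which carries another transcript accession, moved the other way. It was at -0.87 and -1.23 in medium and at -1.76 and -1.72 with WGP, well above background on all 4 arrays, and 1.61-fold lower. With each kept probe tested on its own, an alternative added after seeing the data, the adjusted p was 0.0393 for this probe and 0.0283 for the brightest. The mean of both probes changed by 0.11 (adjusted p = 0.612). The direction for Cdkn1a therefore depends on the probe.

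RefSeq (GRCm38.p6) gives Cdkn1a more than 1 transcript start, and the 250 bases before each of both starts in the table are shown because the opposite probes carry different transcript accessions; the array values do not tie a probe to a start. Both lie on the plus strand, the first at chr17:29090729-29090978 and the second at chr17:29093519-29093768. Neither 300-base window around these starts holds any of the E2F, CHR or CCAAT letters described further on, so no capitals appear.
Cdkn1a, first start: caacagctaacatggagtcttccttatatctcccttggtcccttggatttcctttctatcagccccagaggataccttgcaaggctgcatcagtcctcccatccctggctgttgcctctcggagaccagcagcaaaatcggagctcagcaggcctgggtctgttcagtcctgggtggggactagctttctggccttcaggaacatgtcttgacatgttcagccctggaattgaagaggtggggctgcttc
Cdkn1a, second start: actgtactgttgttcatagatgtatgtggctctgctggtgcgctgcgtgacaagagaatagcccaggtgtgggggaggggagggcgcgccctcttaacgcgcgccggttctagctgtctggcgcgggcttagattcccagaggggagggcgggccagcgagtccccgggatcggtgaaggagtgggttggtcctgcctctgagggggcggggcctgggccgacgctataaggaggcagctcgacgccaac

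**Figure D3:**
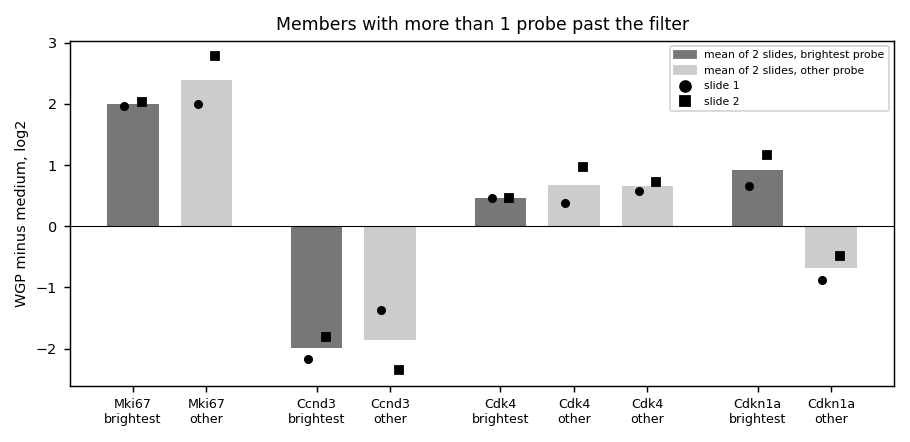
Log2 change with WGP for the 4 members with more than 1 probe past the filter; bars are means of 2 slides from 0 and points are the slides. Both Mki67 probes, both Ccnd3 probes and all 3 Cdk4 probes share a direction, and the Cdkn1a probes lie on opposite sides of 0 at 0.91 and -0.69.

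The other genes with several kept probes gave 1 direction. The second Ccnd3 probe was at -0.86 and -0.95 in medium and -2.23 and -3.30 with WGP, above background on 1 of the 2 WGP arrays, and 3.63-fold lower (adjusted p = 0.0306 over kept probes). The other Cdk4 probes rose 1.60-fold (adjusted p = 0.0538) and 1.57-fold (adjusted p = 0.0214) in that fit, against 0.0327 for the brightest. Of these Cdk4 probes, the first did not pass.

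Of the 3 E2F factors, 1 rose, 1 fell and 1 did not pass. E2f1, an activator that turns on S-phase genes, was at 2.47 and 2.34 in medium and 1.83 and 1.92 with WGP, lower on both WGP arrays and 1.45-fold lower (-0.54 ± 0.11, adjusted p = 0.0230). E2f8, an atypical E2F that represses the same promoters, was at -2.44 and -2.28 in medium and -1.45 and -1.34 with WGP, higher without overlap and 1.95-fold higher (0.97 ± 0.11, adjusted p = 0.00696). E2f2, a second activator, was at 2.02 and 2.27 against 2.01 and 2.05 and did not pass (-0.11 ± 0.13, adjusted p = 0.521). The fall of E2f1 lost its call without any 1 of the 4 arrays (adjusted p = 0.0519 to 0.116) and with median scaling (0.0925), and the rise of E2f8 with normexp background and quantile normalization (0.0632).

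Among the 10 origin licensing and helicase members, 8 were tested, 3 rose (Cdt1, Mcm3, Mcm4), none fell, and 5 did not pass. Cdt1, which loads the MCM helicase onto origins, was at 1.62 and 1.88 in medium and at 3.27 and 3.29 with WGP. Both WGP arrays lay well above medium, and the rise was 2.89-fold (1.53 ± 0.13, adjusted p = 0.00366). Mcm3, a helicase subunit, went from 0.87 and 0.78 to 1.65 and 1.57, a 1.71-fold rise of nearly the same size on both slides (0.78 ± 0.10, adjusted p = 0.00846). Mcm4, another subunit of the same ring, was at 0.01 and -0.08 in medium and 0.37 and 0.36 with WGP, 1.32-fold higher (0.40 ± 0.097, adjusted p = 0.0366).

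Mcm5, Mcm6 and Mcm7 of the same ring did not pass. Mcm6 was at 4.09 and 3.88 in medium and at 4.20 and 4.32 with WGP, a change of 0.28 ± 0.12 (adjusted p = 0.144). Mcm7 was at 0.95 and 0.90 against 0.27 and 0.69, lower on both WGP arrays but by 0.68 on slide 1 and 0.21 on slide 2 (-0.45 ± 0.17, adjusted p = 0.106). Mcm5 was at -2.21 and -1.74 against -2.34 and -1.78, overlapping (adjusted p = 0.804). The GINS subunits, which join the MCM ring to the active helicase, changed by 0.19 ± 0.13 (Gins1, adjusted p = 0.306) and 0.22 ± 0.16 (Gins2, adjusted p = 0.328). The rise of Mcm4 lost its call without any 1 of the 4 arrays (adjusted p = 0.0655 to 0.162) and with the slide as a block (0.0621), and that of Mcm3 without WGP 1 (0.0510).

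The promoters of these genes are of interest because E2F factors bind near such starts, and E2F-type letters were searched in RefSeq windows of 250 bases before to 50 after each start. The letters were TTTGGCGC and TTTCCCGC, on both strands. They occurred at 8 of 39 member starts (20.5%, in Mcm3, Mcm5, Mcm6, Mcm7, Cdt1, Cdc6, Cdk2 and E2f2), and at 1.56% of all 32851 starts in the table; 34 members had an entry. Of these 8 genes 3 rose, 4 did not pass and 1 was not tested. A match is a description of letters and not of binding.

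Shown first are 30 bases past the start of Cdt1 (plus strand, chr8:122568032-122568061) and of Mcm3 (minus strand, chr1:20820266-20820295), the most strongly raised licensing genes, then the 250 bases before the start of Mcm6 (minus strand, chr1:128359706-128359955), which holds the same letters but did not pass the test. Each is printed 5′ to 3′ on the strand of its gene from RefSeq, and capitals mark the E2F letters or their reverse complement and, in Mcm6, CCAAT or ATTGG. The E2F letters begin 32 bases past the start in Cdt1, 19 and 38 bases past it in Mcm3, and 110 and 47 bases before it in Mcm6.
Cdt1: cgcgggaactaccttTTTGGCGCcatggcg
Mcm3: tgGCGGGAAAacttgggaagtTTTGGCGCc
Mcm6: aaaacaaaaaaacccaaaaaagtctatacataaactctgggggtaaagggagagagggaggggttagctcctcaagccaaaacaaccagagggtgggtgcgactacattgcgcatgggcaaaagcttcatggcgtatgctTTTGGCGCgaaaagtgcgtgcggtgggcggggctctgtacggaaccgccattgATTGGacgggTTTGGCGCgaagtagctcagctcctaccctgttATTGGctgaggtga

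At the fork and in nucleotide supply, 3 of 4 members were tested, Pcna and Tk1 rose and Rrm1 did not pass. Pcna, the clamp that holds polymerases on DNA, was at 3.43 and 3.31 in medium and 4.65 on both WGP arrays. The groups were far apart, and the rise was 2.44-fold (1.29 ± 0.0998, adjusted p = 0.00320). Tk1, thymidine kinase, which salvages thymidine for DNA synthesis, was at -1.65 and -1.99 in medium and at -0.73 and -0.45 with WGP, 2.34-fold higher (1.23 ± 0.18, adjusted p = 0.0111). Rrm1, the large subunit of ribonucleotide reductase, was at -0.53 and -0.67 against -0.86 and -1.25, lower on both WGP arrays without passing (-0.46 ± 0.17, adjusted p = 0.0997). With no filter on dim probes Tk1 had an adjusted p of 0.0565.

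Of the 14 G2 and mitosis members 8 were tested, Mki67 and Ccnb2 rose, none fell and 6 did not pass. Mki67, which codes for Ki-67, a chromosome surface protein used as a marker of cycling cells, was at -0.49 and -0.45 in medium and at 1.49 and 1.57 with WGP. The level rose by 2.00 ± 0.096 on the log2 scale (a 4.0-fold rise, adjusted p = 0.00156), by 1.97 on slide 1 and 2.03 on slide 2. Its second probe was at -1.19 and -1.78 in medium and 0.80 and 1.00 with WGP, 5.22-fold higher (adjusted p = 0.00706 over kept probes).

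Ccnb2, cyclin B2, a mitotic partner of Cdk1, was at -3.29 and -2.74 in medium, where neither array was well above background, and at -1.88 and -1.91 with WGP. The rise was 2.17-fold at the measured medium signal (adjusted p = 0.0205 in limma). That call was lost without WGP 1 (0.0702) or WGP 2 (0.0659). Ccnb1, cyclin B1, was at -2.53 and -2.81 against -2.30 and -1.66, higher on both WGP arrays but unevenly, by 0.22 and 1.14 (0.68 ± 0.26, adjusted p = 0.104), and passed without WGP 1 (1.00, adjusted p = 0.0422) but not without WGP 2 (0.36, adjusted p = 0.252). Cdk1, the mitotic kinase, was at -2.68 and -2.59 against -2.58 and -3.11, overlapping (adjusted p = 0.461), and well above background on 1 of the 2 WGP arrays.

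Birc5, survivin, a subunit of the chromosomal passenger complex, was at -0.58 and -0.56 in medium and at -0.29 and 0.15 with WGP (0.50 ± 0.18, adjusted p = 0.0926). The regulators of mitotic exit did not pass. Cdc20, an activator of the anaphase-promoting complex, was at -1.39 and -1.49 against -1.57 and -1.55 (adjusted p = 0.363), and Ube2c, an E2 enzyme of that complex, at -0.82 and -1.05 against -1.07 and -1.29 (-0.24 ± 0.14, adjusted p = 0.240).

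A second Ube2c probe, too dim to keep, was at -4.54 and -4.83 in medium and -2.48 and -2.97 with WGP, above background on 1 WGP array, and so opposite in direction to the kept probe. A Ccnb1 probe above background on no array was also opposite to the kept one, at -3.82 and -3.79 in medium and -4.85 and -4.75 with WGP. Another Ccnb1 probe above background on no array was slightly higher with WGP, at -3.63 and -3.51 against -3.47 and -3.15. Plk1, a mitotic kinase, was at -2.70 and -2.27 in medium and at -3.91 and -2.67 with WGP, where neither array was well above background. WGP 2 lay slightly above medium 1, so the groups overlapped and no smallest fall can be given. The change of Plk1, -0.81 ± 0.46, did not pass (adjusted p = 0.228). It passed without WGP 2 (0.0322), while without WGP 1 the adjusted p was 0.606.

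Mitotic genes share promoter letters of their own: CHR elements (TTTGAA or TTCGAA) and CCAAT boxes, searched in the same windows on both strands. CHR letters occurred at 14 of 39 member starts (35.9%) and at 19.2% of all starts, and CCAAT at 27 (69.2%) and at 37.4%. The 14 genes with CHR letters included Mki67, Ccnb2 and E2f8, which rose, 6 that did not pass and 5 that were not tested. The 25 genes with CCAAT included 6 that rose, 2 that fell, 11 that did not pass and 6 that were not tested. Matches of different motifs overlapped at 0 member starts.

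The 250 bases before the starts of Mki67 (minus strand, chr7:135716380-135716629), Ccnb2 (minus strand, chr9:70421555-70421804) and Ube2c (plus strand, chr2:164769679-164769928) are shown, from RefSeq GRCm38.p6, because all have CHR and CCAAT letters and yet the first pair rose and Ube2c did not pass. Capitals mark CHR and CCAAT letters or their reverse complements. A run of CCAATTGG in Ube2c is 2 CCAAT matches on opposite strands that overlap. The CHR letters begin 116 and 98 bases before the start in Mki67, 167 before and 4 past it in Ccnb2 (the latter outside the printed stretch), and 29 before it in Ube2c.
Mki67: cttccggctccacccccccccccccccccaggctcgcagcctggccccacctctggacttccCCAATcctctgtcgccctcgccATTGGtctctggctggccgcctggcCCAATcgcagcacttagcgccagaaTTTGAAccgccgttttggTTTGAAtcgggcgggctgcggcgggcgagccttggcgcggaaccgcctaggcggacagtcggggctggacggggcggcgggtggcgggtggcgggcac
Ccnb2: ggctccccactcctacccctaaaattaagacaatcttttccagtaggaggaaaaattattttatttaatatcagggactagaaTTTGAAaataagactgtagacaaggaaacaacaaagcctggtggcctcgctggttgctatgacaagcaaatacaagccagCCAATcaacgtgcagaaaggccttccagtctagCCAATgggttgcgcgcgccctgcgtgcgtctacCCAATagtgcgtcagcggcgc
Ube2c: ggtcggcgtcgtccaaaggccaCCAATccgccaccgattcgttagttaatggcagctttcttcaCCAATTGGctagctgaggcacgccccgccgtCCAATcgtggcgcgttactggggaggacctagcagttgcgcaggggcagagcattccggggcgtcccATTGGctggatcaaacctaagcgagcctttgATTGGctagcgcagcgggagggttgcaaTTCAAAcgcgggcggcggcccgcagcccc

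The 11 members without a test were Ccnd2 and Ccne2 (cyclins of G1), Mcm2 and Cdc6 (licensing), Rrm2 (the small ribonucleotide reductase subunit), Ccna2 (cyclin A2), Aurka and Aurkb (Aurora kinases), Bub1 and Bub1b (the spindle checkpoint) and Top2a (the topoisomerase that untangles chromosomes). Within a group, both arrays were never well above background for any of their probes, and for 7 members no array showed a probe above background. Rrm2 was above background on medium 1 and WGP 2, Ccna2 on WGP 1, and Aurkb and Bub1b on medium 1. Bub1b was at -1.29 on medium 1 and -5.09 on medium 2, so the medium arrays differed more than the groups. With no filter on dim probes their adjusted p ranged from 0.337 for Ccna2 to 0.991 for Ccnd2.

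Over all 42, the number above background was 33 and 30 on the medium arrays and 30 and 28 on the WGP arrays (78.6%, 71.4%, 71.4% and 66.7%), against 57.5%, 53.7%, 53.9% and 52.2% of all named genes. The count of detected members was not higher with WGP. Because a tested member had to be bright in at least 1 group, the counts over the 31 are not counts over the 42.

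**Figure D4:**
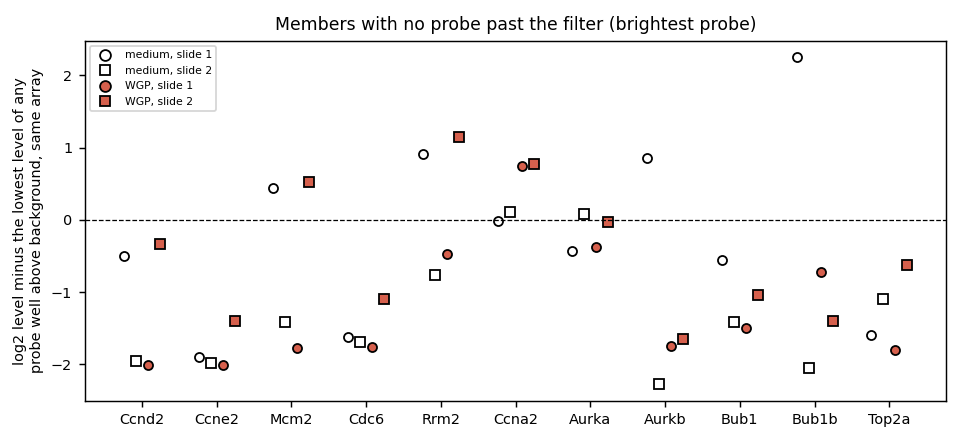
The brightest probe of each of the 11 untested members on the 4 arrays, as its log2 level minus that of the dimmest probe well above background there (dashed line at 0). Most points lie below the line, and Bub1b lies above it on medium 1 alone.

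Other genes of the cell cycle were taken from 10 lists, together 295 genes of which 199 were tested. They gave 41 higher and 37 lower calls (39.2% of the tested genes), near the 40.6% of all genes, with a median change of 0.02. With median scaling the split became 53 higher and 24 lower. The lists below give counts, their median change and up to 2 called genes with the largest rise and fall.

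**Figure D5:**
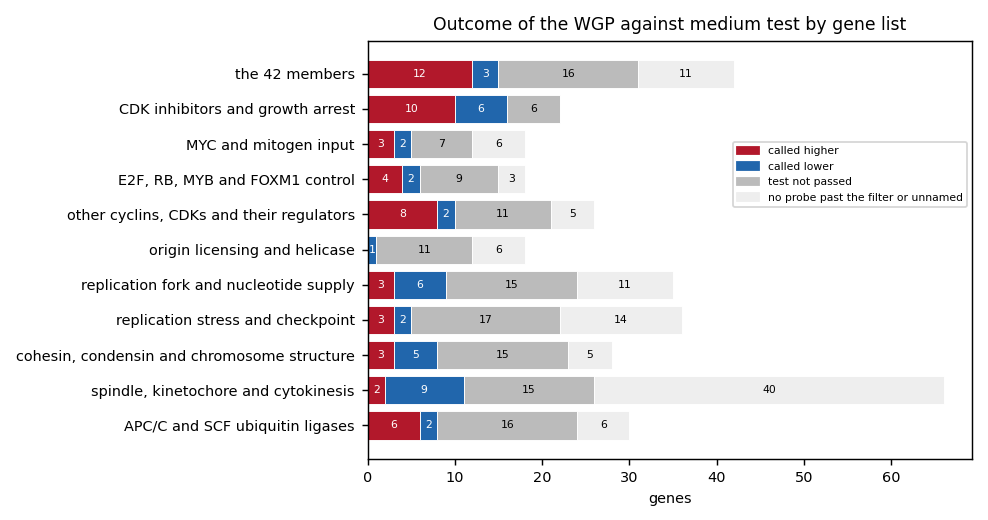
For the 42 members and each of the 10 lists, the number of genes (x) called higher, called lower, not passing the test, or without a kept probe. The CDK inhibitor and growth arrest list has calls for 16 of 22, and the origin licensing list has 1 of 12 tested.

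The CDK inhibitor and growth arrest list had the highest share of calls among the 10 lists, 72.7%, with 10 higher and 6 lower of 22 tested and a median change of 0.17. Plk3, a stress kinase, rose at least 4.38-fold (adjusted p = 0.00505), and Gadd45g, a growth arrest gene, rose by 2.67 on the log2 scale (adjusted p = 0.00143). Sesn1, a p53-induced sestrin, fell by 2.10 (adjusted p = 0.00164), and Btg2, an antiproliferative p53 target, was at least 3.69-fold lower (adjusted p = 0.00160). Mdm2, a ligase that degrades p53 and is itself a p53 target, rose by 1.59 (adjusted p = 0.00306), and Trp53 changed by 0.04 (adjusted p = 0.792).

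Transcription control gave 4 higher and 2 lower of 15 tested in the E2F, RB, MYB and FOXM1 list (median 0.14). E2f6, a repressor E2F, rose by 0.84 (adjusted p = 0.00845) and the activator E2f3 by 0.63 (0.0326), while the E2F partner Tfdp2 was at least 1.69-fold lower (0.00156) and the pocket protein Rbl2 fell by 0.82 (0.0306). Rb1 changed by -0.20 (0.205), Foxm1 by 0.37 ± 0.37 (0.464) and Mybl2 by -0.59 ± 0.24 (0.121), none past the threshold. Growth signal genes gave 3 higher and 2 lower of 12 (median 0.40), with the transcription factor Egr2 up by 2.80 (0.00129) and Maf and the MYC antagonist Mxd4 down, at -2.55 and -2.18 (0.00129 and 0.00166). No array had Myc well above background, and Csf1r, the M-CSF receptor, changed by 0.46 ± 0.13 (0.0586).

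Other cyclins and CDKs gave 8 higher and 2 lower of 21 (median 0.24), with Ccnf at least 2.81-fold (0.00430) and Cdk13 at least 2.35-fold higher (0.0261), and Ccng2 at least 2.34-fold lower (0.00328) and the phosphatase Cdc25b at -1.02 (0.0185). Origin licensing genes outside the members gave 0 higher and 1 lower of 12 (median -0.03). The lower call was Dbf4, an activator of the Cdc7 kinase, 1.40-fold lower as measured (0.0344), with neither WGP array well above background. Fork genes gave 3 higher and 6 lower of 24 (median -0.27), with Uhrf1 at least 2.03-fold higher (0.0491) and the flap endonuclease Fen1 up by 0.63 (0.0166), and polymerase subunit Pola1 at least 1.89-fold lower (0.0287) and clamp loader subunit Rfc2 at -0.70 (0.0286). Replication stress genes gave 3 higher and 2 lower of 22 (median -0.18), with Rad17 and Atr at 0.94 and 0.63 (0.0485 and 0.0116) and Rad18 at -0.73 (0.0287).

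Spindle and cytokinesis genes gave 2 higher and 9 lower of 26 tested, of 66 listed (median -0.26). Zwint, a kinetochore protein, rose by 0.78 (0.0101) and Prc1, of the central spindle, by 0.61 (0.0343), while the motor Kifc1 was at least 1.42-fold lower (0.0263) and Stmn1, which destabilizes microtubules, was at -1.40 (0.00500). Cohesin and condensin genes gave 3 higher and 5 lower of 23 (median -0.12), with the nuclear lamin Lmnb1 at 2.04 (0.00440, above background on 1 of 2 medium arrays), histone H2ax at 0.62 (0.0234), and condensin subunits Ncaph and Smc4 at -1.45 and -0.78 (0.00343 and 0.00779). APC/C and SCF genes gave 6 higher and 2 lower of 24 (median 0.11), with Usp1 and Ube2s at 0.96 and 0.95 (0.0136 and 0.0105) and Anapc15 and Anapc5 at -0.61 and -0.44 (0.0149 and 0.0287). The values in brackets in these paragraphs are adjusted p-values from limma. The bounds given as at least hold under the main processing only. Over the alternatives the change of Ccng2 was as small as -0.013, and its call was lost in 2 of them. The changes of Ccnf, Cdk13, Plk3 and Uhrf1 were as small as 0.26, 0.29, 0.51 and 0.084. Ccnf, Plk3, Btg2 and Lmnb1 were not tested with probes above background on all arrays. Of the 37 called genes that the naming rule picks from the lists, 11 kept their call in every alternative in which they were tested (Ccnf, Plk3, Gadd45g, Sesn1, Btg2, Egr2, Maf, Mxd4, Stmn1, Lmnb1 and Ncaph), and 21 lost it when 1 array was left out, with adjusted p of 0.0503 to 0.150. With normexp background and percentile scaling, the changes of Dbf4, Pola1, Tfdp2, Cdc25b and Kifc1 turned slightly positive. Among the 21 were Dbf4, Uhrf1, Fen1, Pola1, Rfc2, E2f3, Rbl2, Cdk13, Cdc25b, Zwint, Prc1, Kifc1, H2ax, Usp1, Ube2s, Anapc15, Anapc5, Rad17, Atr and Rad18.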

How the data were processed

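Per the labels' protocols, Cy3-labelled cRNA of the medium and WGP macrophages went onto 1-colour Agilent arrays. The submitters' processing notes name Agilent Feature Extraction 10.7.3. The analysis started from processed spot intensities deposited by the authors, which per the file headers are background-subtracted with no normalization between arrays; the deposited flags for spots well above background and outlier spots were also used. The authors' deposited log2 table served as an alternative; after centring each probe it correlated at 1 with the values used here over 39394 probes. Its column medians were -0.0145, 0.164 and 0.103 for medium and 0.0997, 0.130 and 0.100 for WGP, and the baseline of its centring stays unknown.

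Control spots (1377) and outlier spots (118 to 183 per array) were left out, and log2 intensities were set relative to the array's 75th percentile and averaged per probe. Probes were named through RefSeq accessions of GRCm38.p6 (26761 of 39429, for 20283 genes). Kept probes were well above background on both independent arrays of at least 1 group, on at least 0.5 of their spots, and the brightest kept probe stood for each gene. The processed signal of medium replicate 3 equalled the mean of medium 1 and 2 within 0.695%, and that of WGP replicate 3 equalled 1.3 times WGP 1 within 0.488%. WGP was tested against medium in limma 3.58.1, R 4.3.3 (lmFit, eBayes; 2 residual and 2.19 prior degrees of freedom), with Benjamini-Hochberg adjustment and a threshold of 0.05; the scripts were tested on simulated data. Only 2 arrays per group limit the precision. Slides pair the arrays per the file headers; deviations from the group means correlated at 0.14 within slides, over 2 pairs, and a slide block was tried as an alternative. Named genes were all members, the up to 2 called genes with the largest rise and fall of each list, and a fixed set of regulators and markers, of which some are not reported here. The members and lists were chosen with earlier results of these data known. Genes without a named probe (Kif14, Skp2, Cd68, Ly6g) were not analysed here. The alternatives were other scalings and backgrounds, other probe filters, other uses of replicate 3, the slide block and leaving out 1 array.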

Additional observations from a re-analysis of the deposited data

How the results depend on the processing

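Under 17 alternatives, 1 of them added after seeing the data, 5 of the 15 member calls held wherever tested (Mki67, Pcna, Cdt1, Ccnd3, Cdkn2c). Cdkn2c was tested in 16 of the 17, because the filter for probes above background on all arrays removes it. The other 10 calls were lost in at least 1 alternative, and 0 called members changed sign. That count leaves out the second Cdkn1a probe, which fell when tested on its own in limma (-0.69, adjusted p = 0.0393). Sizes moved more: over the alternatives the changes ran from 1.26 to 2.19 for Mki67, 1.01 to 1.45 for Pcna, -2.14 to -1.58 for Ccnd3 and -2.32 to -0.29 for Cdkn2c, with normexp giving the smallest. The number of changed members was 6 with no filter on dim probes, 23 with every file as its own sample (which counts repeated files as replicates) and 10 to 12 without 1 array. The number of changed genes was 1532, 7449 and 2257 to 3281 in those settings, and that of the pathway lists 21, 137 and 38 to 54. With the slide as a replicate block, the counts were 13 members, 4090 genes and 81 list genes; among the members the block ended the calls of Cdk2 and Mcm4. No filter on dim probes also left Mcm3 at an adjusted p of 0.0582 and ended the calls of Mcm4 (0.174), Cdk2 (0.149), Cdk4 (0.128), Cdkn1a (0.0915), Ccnb2 (0.0847) and E2f1 (0.117). Normexp background ended those of Mcm4 (0.141 and 0.0897) and Ccnb2 (0.102), quantile normalization that of Cdk4 (0.0706), and testing each probe on its own that of Cdk2 (0.0504). Of 16 members that did not pass, 10 passed in at least 1 setting and 7 changed sign. Median scaling turned E2f2 (0.054), Mcm5 (0.074), Cdc20 (0.042), Adgre1 (0.12) and Cd3e (0.15). Normexp with percentile scaling turned Mcm5 (0.078), Ccnd1 (0.058), Cdk1 (0.023), Cdk6 (0.030), Plk1 (0.055), Cdc20 (0.0013), Trp53 (-0.096) and, among genes called in the main test, Dbf4 (0.048), Pola1 (0.025), Tfdp2 (0.026), Cdc25b (0.0061) and Kifc1 (0.050). Quantile normalization turned Mcm5 (0.033) and Trp53 (-0.10), and with normexp Trp53 (-0.091). Leaving out 1 array in turn moved E2f2 between -0.24 and 0.014, Mcm5 between -0.37 and 0.19, Cdk1 between -0.48 and 0.057, Foxm1 between -0.12 and 0.86, Trp53 between -0.030 and 0.10, Adgre1 between -0.13 and 0.039, Cd3e between -0.31 and 0.27 and Col1a1 between -0.50 and 0.17. Apart from the repeated files, the cause was not tested. Signals near background limit Ccnb2, Cdkn2c, Plk1 and the 11 untested members most. They also limit Cdk1 and Cdk6, each well above background on 1 of the 2 WGP arrays.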
